A study of Mus musculus with 8 samples.

Results

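The deposited window table lists short stretches of the mouse genome with the reads counted there, and some of these stretches carry the name of a repeat class. The windows described here are those listed in 2 rows of the table that also carry such a name. They number 2844 of the 243007 rows. The remaining rows hold 18146 windows that are also listed in 2 rows but have no class, and 201027 windows that are listed once. Members were found by their position and their repeat label alone, with no measured value, and their counts are scaled to the gene table total of the same library and given as CPM, the usual depth-scaled count.

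The libraries came from dissociated lumbar ganglia L4 to L6 of mice that had a crush of 1 sciatic nerve. There were 4 injury and 4 naive libraries, taken 3 days after the crush, and the design text says that each of 4 mice gave injured and naive ganglia. The naive ganglia therefore came from operated animals. Strain, sex and age are not given in the labels used here. The ganglia hold sensory neurons together with glia and other cells, so that fewer cells of a type and less RNA per cell cannot be told apart.

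The assay reads messenger RNA from its poly(A) tail, the run of adenosines that is added after the transcript is cut a short way past a signal hexamer, usually AATAAA or ATTAAA. Repeats can supply such ends. B2 elements are short interspersed repeats of the mouse that RNA polymerase III can transcribe, and their tails hold AATAAA. The label Alu covers B1 elements in the mouse, B4 and ID are further short interspersed families, and MIR is an ancient one. L1 is a long interspersed family and L2 an ancient one, ERVL-MaLR and ERVK are families with long terminal repeats, and hAT-Charlie is a DNA transposon. Low_complexity and Simple_repeat name AT-rich or short repeated stretches and not mobile elements. A read in such a window may come from the end of an ordinary gene that has a repeat in its 3′ UTR, or from the repeat's own transcript.

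All 2844 member rows were 25 bases wide and stood in the plus-strand block, and their partner rows in the other block carried no class. Of all member and partner counts, 99.4% fell in the member rows. The members carried 55 labels. The most frequent were Alu with 580 windows, Low_complexity with 558, B2 with 531, ERVL-MaLR with 181, Simple_repeat with 180, L1 with 152, B4 with 137 and ERVK with 111. Combined labels such as Simple_repeat;B2 were carried by 86 windows. No count was found in any library for 1509 members (53.1%), and the share among paired windows with no class was 56.7%.

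The sequences at named windows show which signals stood there, and not all of these windows lie at an annotated transcript end. The stretches below come from GENCODE vM21 transcripts on GRCm38, run 5′ to 3′ on the plus strand, and start within the window or just past its end. The B2 set is shown because each has the AATAAA of the B2 tail, and 3 of its 4 windows rose after the crush while that of H2-D1 was not called. The B2 window of Aida also had AATAAA, fell, and is not shown. Of 76 tested B2 windows in 3′ UTRs, 8 (10.5%) were called higher and 2 lower, beside 36.4% and 2.7% of all rows. A link of the signal to the changes was not tested. Capitals mark AATAAA.
Mpv17l chr16:13949313-13949342: gtacttacatttAATAAAtaaataaatctt
Klhl24 chr16:20128154-20128183: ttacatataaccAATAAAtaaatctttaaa
Zfp318 chr17:46416445-46416474: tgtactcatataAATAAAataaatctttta
H2-D1 chr17:35267321-35267350: cttacatataatAATAAAtaagtctttaaa

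Windows of other classes carried the same AATAAA or, in Snap25, ATTAAA. The next set holds called windows of an L2, a B4, a hAT-Charlie and 2 Low_complexity stretches, with AATAAA or ATTAAA in capitals.
Cdkn1a chr17:29100690-29100719: aagctggtgctcAATAAAtacttctcgatg
Zfp318 distal chr17:46420883-46420912: ggcatgtgcattAATAAAtaaatgtagtta
Galnt9 chr5:110621345-110621374: acttgttttataAATAAAgttttattggca
Snap25 chr2:136782389-136782418: tagtttaaaattATTAAAaattatagatca
Gnaq chr19:16386022-16386051: aacaaaacaaaaAATAAAaacaaaaaaatt

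The last set shows windows whose printed stretch lacks both signals. The Alu stretch of Map1a runs into a tract of A, with AAAAAA in capitals, while the ends in Fgf3 (ERVL-MaLR) and Prkce (Simple_repeat) show neither signal nor A tract.
Map1a chr2:121309746-121309775: gtgagtccttgtctcAAAAAAaaaaaaaaa
Fgf3 chr7:144844410-144844434: ggctgtgacaatacattcctgctgt
Prkce chr17:86655374-86655398: aggaagagagaaaggaaggaagaaa

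The same signals were counted over the classes. AATAAA or ATTAAA was searched on the plus strand in the 40 bases made of the window and 15 bases past it, where a transcript covered them. It was present in 52.2% of 790 member windows and in 57.1% of 6600 paired windows with no class. The share was 77.1% of 96 B2 windows, 88.4% of 43 ERVL-MaLR windows and 67.3% of 205 Low_complexity windows. It was 18.7% of 155 Alu windows. In the 50 bases up to the window's end, the stretch first planned for the search, the share was 28.9% of 859 members and 37.1% of 7120 windows with no class. There it was 26.0% of 104 B2 windows, 44.6% of 56 ERVL-MaLR windows, 38.6% of 220 Low_complexity windows and 7.64% of 157 Alu windows, so that B2 stood above windows with no class in the first stretch and below them in the second.

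Tracts of A past the window showed another order. AAAAAA stood within 30 bases past the window in 60.3% of 141 Alu windows, in 48.1% of 79 B2 windows and in 5.88% of 17 ERVL-MaLR windows, against 18.5% of 4906 paired windows with no class. An oligo(dT) primer can also anneal to an A tract inside an RNA, so counts beside such tracts need not mark transcript ends. Among called members with those bases in hand, the tract was found for 17 of 24 windows that rose and for 6 of 16 that fell, and among all tested members for 172 of 411. Its part in the changes was not tested.

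Member windows with counts lay mostly in annotated 3′ UTRs, less so for mobile repeats. Of 1335 members with counts, 858 (64.3%) lay in a 3′ UTR, 216 within 1000 bases past a gene's end, 44 in an intron and 206 on no annotated gene of that strand. The share in 3′ UTRs was 95.6% for Simple_repeat, 90.5% for Low_complexity, 53.8% for Alu and 43.7% for B2, beside 89.4% of paired windows with no class. Within 50 bases of an annotated transcript end lay 50.6% of Low_complexity, 18.9% of B2 and 12.4% of Alu windows with counts.

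Values with ± are mean ± SD over the 4 libraries of a group. Gene counts summed to between 16539644 and 28950551 per library, and member windows held between 1.05% and 1.31% of that number. The 8 sensory neuron markers summed to 12960 to 13720 CPM in naive and 13379 to 17665 CPM in injury libraries. Of these markers Tubb3 was called higher (log2 fold change 0.55, edgeR adjusted p = 0.000544), and Scn10a (-0.64, adjusted p = 0.00055) and Pou4f1 (-0.38, adjusted p = 0.0032) lower. The injury genes Atf3, Sprr1a and Gal were all called higher. Macrophage markers rose for 3 of 4 genes, with a sum of 4.73 to 9.01 CPM in naive and 18.6 to 29.6 CPM in injury libraries, while glial markers had 0 of 6 called. Of the 4 red cell genes, 3 were at 0 in all libraries, and the 3 muscle genes summed to 1.39 to 4.39 CPM. The part of these cells in the changes of the windows was not tested.

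Libraries injury 2 and injury 3, and to a lesser degree naive 2, held fewer counts at AT-rich windows than the other libraries of their group. Over the 1147 tested paired windows with at most 20% G and C, the median log2 deviation from the group mean was 0.12 and 0.17 in injury 1 and 4 but -0.16 and -0.074 in injury 2 and 3. Over 172 tested Low_complexity members, the median log2 deviation from the group mean was 0.48 and 0.43 in injury 1 and 4 but -0.49 and -0.33 in injury 2 and 3. In naive 1 to 4 it was 0.046, -0.14, 0.09 and 0.097. In the injury libraries B2 members showed the same order with smaller values. Over 76 of the 152 tested B2 windows, the median deviation was 0.11 and 0.13 in injury 1 and 4. It was -0.11 and -0.084 in injury 2 and 3. In naive 1 to 4 it was -0.029, 0.0067, 0.11 and -0.056, so naive 2 was not low for B2. These sets hold only windows with a transcript sequence. The sum, the median, the calls and the named windows of Low_complexity are given with and without naive 2, injury 2 and injury 3. For B2, the ratio of the sums without them is given further below.

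After the crush, the summed B2 windows were higher in every injury library, and the Low_complexity sum had a lower mean but overlapped between groups. The B2 members summed to 1529, 1682, 1673 and 1529 CPM in naive libraries 1 to 4 and to 2381, 1979, 2101 and 2413 CPM in injury libraries 1 to 4. Every injury library lay above every naive library, and the ratio of the means was 1.38. No p-value is given for a sum over members. The once-listed B2 windows went from 202377 ± 14123 to 392459 ± 40779 CPM (SD, n = 4), a ratio of 1.94, and reads of these may be counted at several windows. The direction depends on the scaling. With TMM factors computed from the window rows themselves, the log2 ratio of the B2 member sums was -0.12, beside 0.47 with gene totals. Such factors take most rows as unchanged. Of the 33851 tested rows, 18204 were once-listed B2 windows, with a median log2 fold change of 1.24. A rise shared by these rows is largely removed by this scaling, so its sign cannot decide whether B2 rose. That scaling shifted the log2 changes of the members by a median of -0.58, and TMM factors of the gene table shifted them by 0.076.

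Low_complexity members summed to 5042, 4366, 5235 and 5331 CPM in naive libraries and to 4479.6, 2408, 2779 and 4735 CPM in injury libraries. The groups overlapped, since injury 1 and 4 lay above naive 2, and the lowest sums were those of injury 2 and injury 3. Without naive 2, injury 2 and injury 3, the means were 5202 and 4608 CPM, and the log2 ratio was -0.18. Sums of L2 members went from 1196 ± 18.8 to 1444 ± 161 CPM and those of hAT-Charlie members from 116 ± 9.1 to 165 ± 21.2 CPM (SD, n = 4), with no overlap in either. The Cdkn1a window alone gained 225 of the 248 CPM of L2, and without it L2 went from 1148 ± 17.7 to 1171 ± 132 CPM with overlap. The hAT-Charlie sums without Galnt9, the window that moved most, were 101 ± 7.04 and 120.2 ± 10.5 CPM and did not overlap. L1 members went from 165 ± 1.48 to 145 ± 5.55 CPM with no overlap, and without the Tecpr2 window they overlapped at 113 ± 5.24 and 104 ± 4.93 CPM. Alu members went from 1121 ± 51.6 to 1179 ± 63.5 CPM and ERVL-MaLR members from 793 ± 107 to 718 ± 83.2 CPM, and both overlapped. A single window of Fbxo2, a ubiquitin ligase subunit, held 48.0% of all L2 counts. Over all classes the members summed to 12487 ± 436 CPM in naive and 11876 ± 1259.5 CPM in injury libraries.

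**Figure D1:**
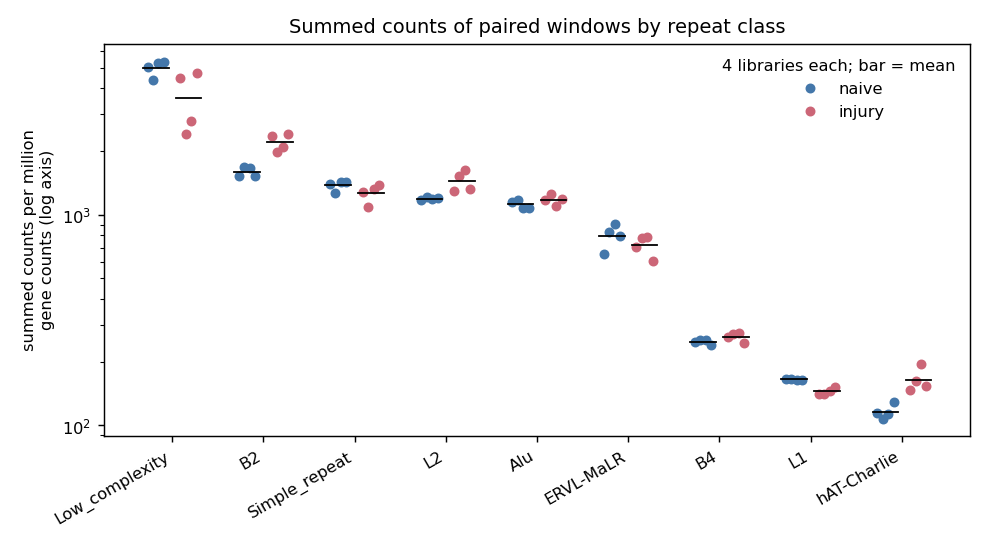
Summed CPM of paired windows for 9 repeat classes on a log axis, with 1 point per library and the mean as a bar. The 4 injury libraries lie above the 4 naive libraries for B2, L2 and hAT-Charlie and below them for L1, and for Low_complexity 2 injury libraries lie far below the other 2.

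Tested window by window, B2 held most of the member windows that rose. Of the 821 members that passed the filter on low counts, 65 were called higher and 39 lower by edgeR's quasi-likelihood test with Benjamini-Hochberg adjustment over all rows, with 36.4% of the 33851 tested rows called higher and 2.7% lower. The median log2 fold change of the tested members was -0.075 and that of all rows 0.72. Paired windows with no class had a median of -0.083, with 364 higher and 463 lower among 5937. Of the 821, 570 passed the filter in both groups, 77 only through the injury libraries and 77 only through the naive libraries. For B2 these last numbers were 23 and 6, and for Low_complexity 5 and 26. Counts over the tested members are therefore a description. With TMM factors from the window rows, 32 members were called higher and 278 lower. Without injury 2 the lower calls numbered 21 in place of 39.

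B2 members had 34 windows called higher (22.4%) and 2 lower (1.32%) among 152 tested, below the 36.4% and 2.7% of all rows. Their median log2 fold change was 0.40 (0.30 over the 103 that passed in both groups). The 2 lower calls became 0 without naive 2, 1 without naive 3, without injury 2, with the replicate block or without filterByExpr, and 4 with DESeq2 or limma-voom. With TMM over the window rows the B2 counts were 19 and 33, and the median was -0.17. Once-listed B2 windows had a median of 1.24, with 10617 called higher and 51 lower among 18204. Low_complexity members had 6 higher and 14 lower among 180, with a median of -0.46 (-0.40 over the 134 that passed in both groups, and -0.17 without naive 2, injury 2 and injury 3). The lower calls of that class numbered 12 without naive 2, injury 2 and injury 3, 7 without injury 2, 8 without naive 3, 22 without injury 1 and 24 without injury 4, and 24 with a replicate block. Alu members had 7 higher and 2 lower among 154, with a median of -0.0069 (4 lower with the replicate block and 1 without naive 4). Simple_repeat members had 1 higher and 8 lower among 61, and the 8 became 4 without naive 3, naive 4 or injury 2 and 5 without injury 3. ERVL-MaLR members had 1 higher and 5 lower among 67. B4 had 2 in each direction among 47, and L1 had 1 in each direction among 28.

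**Figure D2:**
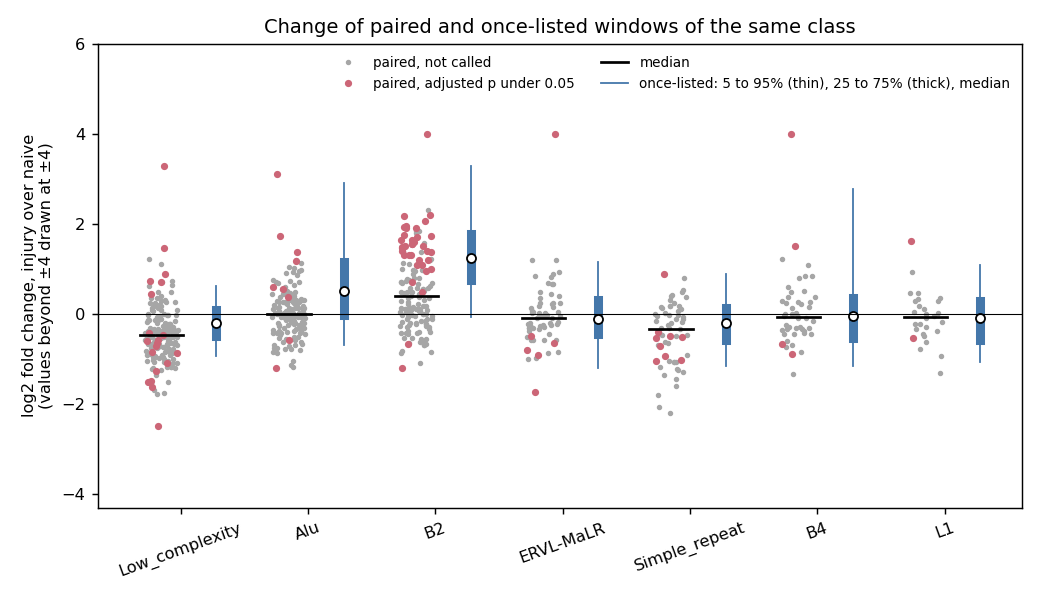
Log2 fold change, injury over naive, of each tested paired window (points; coloured where the adjusted p was under 0.05) in the 7 classes with at least 20 tested members, beside the 5 to 95% range, the 25 to 75% range and the median of once-listed windows of the same class. The B2 members spread upward from a median of 0.40 while the once-listed B2 windows centre on 1.24.

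The tested B2 windows were also divided by position, beside 36.4% of all rows called higher. In 3′ UTRs, 8 of 76 tested B2 members (10.5%) were called higher and 2 lower, with a median log2 fold change of 0.009. Within 1000 bases past a gene's end, 8 of 29 (27.6%) were called higher and none lower, with a median of 0.58. On no annotated gene of the strand, 16 of 43 (37.2%, near the share of all rows) were called higher and none lower, with a median of 1.10. In introns the count was 2 of 4. The difference between positions was not tested. Over all positions the B2 median was 0.40, and -0.17 with TMM over the window rows.

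**Figure D3:**
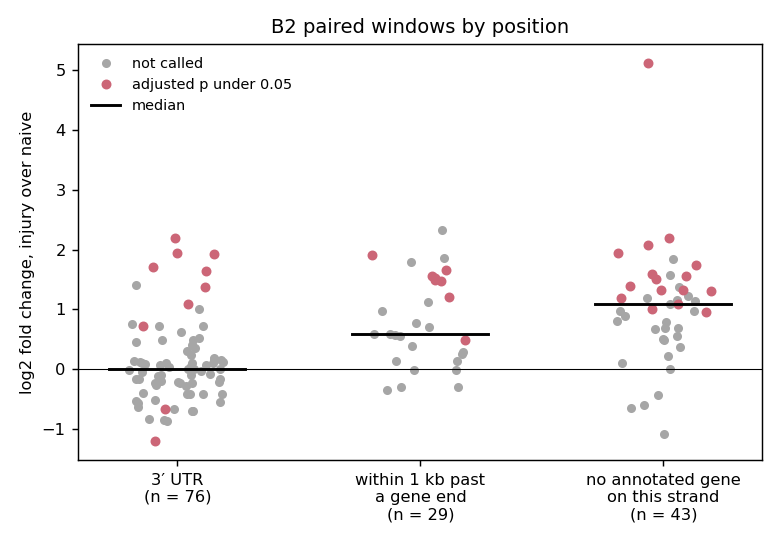
Log2 fold change of the tested B2 paired windows in 3′ UTRs (n = 76), within 1 kb past a gene end (n = 29) and on no annotated gene of the strand (n = 43), with the median as a bar. Called windows are coloured, and the median rises from 0.009 to 0.58 and 1.10 across the 3 positions.

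The strongest B2 calls included the windows of Lhpp and Klhl24, whose gene rows were not called. The window past the end of Lhpp, a phosphatase gene, on chr7:132706703-132706728 held 53.9, 61.5, 55.7 and 48.1 CPM in naive libraries 1 to 4 and 162, 153, 145 and 168 CPM in injury libraries. All injury libraries lay far above the naive ones, with a log2 fold change of 1.52 (SE 0.12, edgeR adjusted p = 5.11e-06). The gene row of Lhpp held only 0.509 ± 0.267 and 0.964 ± 0.284 CPM (SD, n = 4), so the gene table did not count these reads as Lhpp. Whether they belong to its transcript was not tested.

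Klhl24, which encodes an adaptor of a cullin ubiquitin ligase, carried its B2 window inside the 3′ UTR on chr16:20128146-20128171, 1050 bases before the end of the transcript. It held 11.3, 11.9, 10.8 and 7.42 CPM in naive and 33.2, 44.8, 44.1 and 35.1 CPM in injury libraries. The groups stood well apart (log2 fold change 1.92, SE 0.19, edgeR adjusted p = 2.96e-05). The gene row had 33.0 ± 2.72 CPM in naive and 36.6 ± 12 CPM in injury libraries and was not called (edgeR adjusted p = 0.482). Its injury mean lay below the 39.3 CPM of the window, so the gene row did not count all the window's reads.

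The 3′ UTR window of Mpv17l, which encodes a relative of the mitochondrial membrane protein Mpv17, had 164, 104, 152 and 129 CPM in naive and 315, 244, 270.4 and 335 CPM in injury libraries. It rose with no overlap (log2 fold change 1.09, SE 0.16, edgeR adjusted p = 0.000453), while the gene row held 13.5 ± 2.86 and 13.1 ± 5.26 CPM (SD, n = 4). The window past the end of Stx1a, a syntaxin of synaptic vesicle fusion chosen after its values were seen, went from 122 ± 14.1 to 171 ± 24.0 CPM (log2 fold change 0.49, edgeR adjusted p = 0.0141). With TMM over the window rows this change was -0.10. As for Lhpp, the Mpv17l and Stx1a windows held more counts than the gene rows of the same name. Such windows made up 65 of the 699 tested members whose gene is in the gene table, and 8 of the 16 B2 windows called higher that have such a row.

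B2 windows outside exons of coding genes were among the strongest as well. One such window lay in an intron of the unnamed transcript Gm28539 and also within 1000 bases past the end of another gene. It had 28.1, 32.7, 36.0 and 36.6 CPM in naive and 82.6, 75.2, 81.2 and 112 CPM in injury libraries (log2 fold change 1.39, SE 0.16, edgeR adjusted p = 6.79e-05). A window on chr12:111278305-111278330, on no annotated gene of its strand, had 3.95, 6.18, 8.94 and 6.07 CPM in naive and 27.1, 24.4, 23.6 and 30.8 CPM in injury libraries (log2 fold change 2.08, SE 0.24, edgeR adjusted p = 7.89e-05). In both, no injury library came near the naive range.

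The most abundant B2 window did not follow. That of H2-D1, a class I histocompatibility gene, held 250.1, 323, 291 and 266 CPM in naive and 307, 249, 329.8 and 276 CPM in injury libraries. The groups overlapped fully (log2 fold change 0.039, SE 0.13, edgeR adjusted p = 0.832), although its AATAAA tail reads much like those of Klhl24 and Mpv17l. The B2 window of Aida, the gene of an axin-interacting protein, fell from 14.5 ± 1.77 to 9.18 ± 1.81 CPM (log2 fold change -0.66, SE 0.19, edgeR adjusted p = 0.0175). That call was lost without naive 2 (adjusted p = 0.0511).

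**Figure D4:**
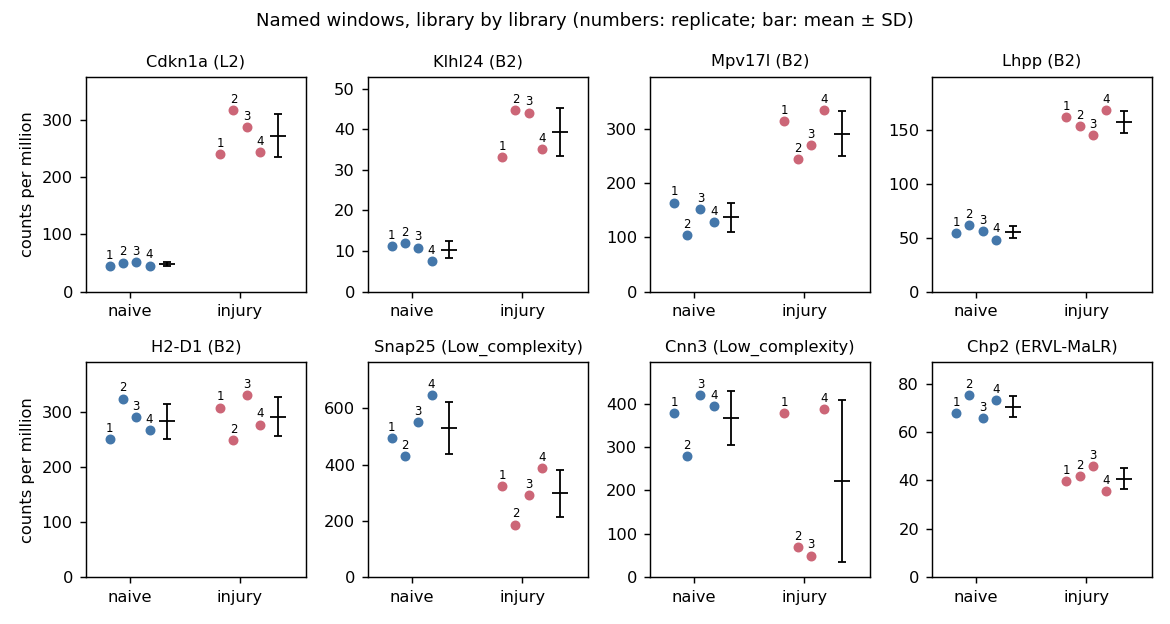
CPM of 8 named windows in each library (points, numbered by replicate) with the mean ± SD. Cdkn1a, Klhl24, Mpv17l and Lhpp are higher in all 4 injury libraries, H2-D1 overlaps, Snap25 and Chp2 are lower, and Cnn3 splits the injury libraries into 1 and 4 (379 and 389) and 2 and 3 (68.3 and 49.5).

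The strongest calls outside B2 were those of Cdkn1a, Lipn and Fgf3, and each lay at or past a gene's end. The L2 window at the end of Cdkn1a, the cell cycle inhibitor p21, on chr17:29100676-29100701 held 44.8, 50.5, 52.0 and 45.4 CPM in naive and 240.3, 318, 289 and 245 CPM in injury libraries. Its log2 fold change of 2.50 (SE 0.13, edgeR adjusted p = 5.38e-07) matched that of the gene, 2.49 (SE 0.10). The L2 window with the most counts of all members, that of Fbxo2 (named after its values were seen), had 611 ± 4.94 CPM in naive and 662 ± 108 CPM in injury libraries and was not called (log2 fold change 0.12, adjusted p = 0.484). It lay at -0.45 with TMM over the window rows and at -0.069 without naive 2, injury 2 and injury 3.

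The ERVL-MaLR window at the end of Fgf3, a fibroblast growth factor, had no count in any naive library and 682 counts over the injury libraries, 7.51, 9.08, 6.78 and 5.93 CPM. It was at least 197.8-fold higher when the naive group is set at a floor of 3 counts, and edgeR's adjusted p was 8.24e-06. The gene row was likewise at 0 in naive and at 7.34 ± 1.29 CPM in injury libraries. A B4 window past the end of Lipn, a lipase gene, had 0, 0, 0.0573 and 0.362 CPM in naive and 20.9, 25.5, 27.2 and 27.1 CPM in injury libraries. Its 9 naive counts stood against 2261 injury counts (log2 fold change 7.77, SE 0.61, edgeR adjusted p = 6.78e-06). The gene row of Lipn held 0.798 ± 0.581 CPM in injury libraries. The Fgf3 and Lipn windows passed the filter only through the injury libraries, where they are high. Their p-values are therefore a description and add no support for the rise.

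Further windows that rose belonged to hAT-Charlie and Alu. Of 11 tested hAT-Charlie members, 3 were called higher and 1 lower, beside 36.4% and 2.7% of all rows. The lower one was in the 3′ UTR of Pex26 (log2 fold change -0.77, edgeR adjusted p = 0.0284). The 3 higher ones each lay within 50 bases of an annotated transcript end. All 4 were named after their values were seen. Galnt9, a glycosyltransferase that starts O-linked glycans, went from 15.2 ± 2.13 to 44.6 ± 11 CPM (log2 fold change 1.55, edgeR adjusted p = 0.000131). The window of Tmem74b went from 5.71 ± 1.39 to 16.9 ± 4.05 CPM (edgeR adjusted p = 0.000484). Fads3, a fatty acid desaturase relative, had a hAT-Charlie window at 12.8 ± 1.16 and 27.7 ± 2.81 CPM and an Alu window farther along the 3′ UTR at 5.72 ± 1.29 and 14.9 ± 0.968 CPM. Both rose (log2 fold changes 1.12 and 1.38, edgeR adjusted p = 0.000181 and 0.000372), as did the gene (1.35). The Alu window of Cd59a, an inhibitor of the complement attack complex, went from 86.4 ± 3.94 to 128 ± 18.2 CPM (log2 fold change 0.56, edgeR adjusted p = 0.00432), but its change was -0.015 with TMM over the window rows. The most abundant Alu window, in Map1a, a microtubule-associated protein of neurons, had 164 ± 15.7 and 172 ± 8.26 CPM and was not called (log2 fold change 0.072, adjusted p = 0.633), with -0.51 under the same scaling.

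The Simple_repeat window of Rnf19b, a ubiquitin ligase gene, rose from 110.2 ± 6.68 to 203 ± 32.9 CPM (log2 fold change 0.88, edgeR adjusted p = 0.000409), and its gene changed by 0.96. That call was lost with TMM over the window rows (adjusted p = 0.16). The L1 window of Aim2, a sensor of cytosolic DNA, had 0.772, 0.145, 0.229 and 0.588 CPM in naive and 1.80, 1.59, 1.25 and 0.786 CPM in injury libraries. Its call (log2 fold change 1.63, edgeR adjusted p = 0.0368) was lost with a replicate block (adjusted p = 0.0599). It was also lost when any library other than naive 1 or injury 4 was left out. The Aim2 window passed the filter only through the injury libraries. An L1 window on chrX:143105297-143105322, on no annotated gene of its strand, fell from 24.3 ± 1.9 to 16.9 ± 0.598 CPM (log2 fold change -0.52, edgeR adjusted p = 0.0091).

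Several abundant windows were not called. The ERVL-MaLR window of Snhg11, a noncoding RNA gene that hosts small nucleolar RNAs, had 284 ± 90.4 CPM in naive and 251 ± 44.1 CPM in injury libraries (edgeR adjusted p = 0.573). That of Faap20, a Fanconi anaemia pathway gene, had 91.8 ± 0.705 and 103 ± 7.7 CPM (adjusted p = 0.224). The B4 window of Dctn5, a dynactin subunit gene, had 35.2 ± 5 and 35 ± 5.28 CPM (adjusted p = 0.974). The L1 window of Tecpr2, an autophagy gene, had 52.2 ± 4.19 and 41.5 ± 4.61 CPM with no overlap (adjusted p = 0.062), and passed the threshold with DESeq2 and limma-voom (adjusted p = 0.0462 in both).

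Of the 39 windows that fell, 34 lay in 3′ UTRs, as did 603 of the 821 tested, and 14 were Low_complexity. The Low_complexity window at the end of Snap25, a membrane fusion protein of the synapse, had 495, 429.9, 552 and 647 CPM in naive and 324, 186, 290.2 and 388 CPM in injury libraries. The groups did not overlap (log2 fold change -0.84, SE 0.21, edgeR adjusted p = 0.00933), and the gene changed by -0.69. Without naive 2, injury 2 and injury 3 the Snap25 window changed by -0.66 (adjusted p = 0.00395). That of Gnaq, the G protein alpha subunit q, had 111, 105, 112 and 105 CPM in naive and 78.2, 39.8, 47.8 and 73.4 CPM in injury libraries (log2 fold change -0.86, SE 0.20, edgeR adjusted p = 0.00703), with the gene at -0.50, and without the same 3 libraries the change was -0.53 (adjusted p = 0.00446). The Simple_repeat window of Prkce, protein kinase C epsilon, went from 88.7 ± 5.56 to 62.8 ± 6.63 CPM (log2 fold change -0.50, edgeR adjusted p = 0.00688), with the gene at -0.48.

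In Snap25 and Gnaq the lowest injury values stood in injury 2 and 3, as they did over the class. In Cnn3, a calponin that binds actin, this split was widest: the window held 379.8, 279, 420.4 and 394 CPM in naive and 379, 68.3, 49.5 and 389 CPM in injury libraries. It was not called (log2 fold change -0.74, SE 0.58, edgeR adjusted p = 0.346), and without naive 2, injury 2 and injury 3 its change was -0.053 (adjusted p = 0.677). The Simple_repeat window of Armcx3, a mitochondrial protein gene, showed the same order in injury libraries, 224, 161, 153 and 250.1 CPM beside 285 ± 5.72 CPM in naive libraries (edgeR adjusted p = 0.0217). Its call was lost without injury 2 (adjusted p = 0.055). Low_complexity windows could also rise. That of Adcyap1, the gene of the neuropeptide PACAP, went from 9.93 ± 0.803 to 27.3 ± 1.76 CPM (log2 fold change 1.46, edgeR adjusted p = 2.59e-05), and its gene changed by 1.48. The window of the transcription factor Sox9, named after its values were seen, went from 0.455 ± 0.343 to 4.58 ± 0.159 CPM (edgeR adjusted p = 0.000463). The Sox9 window passed the filter only through the injury libraries, so this p-value is a description. Without the 3 libraries, Adcyap1 stood at 1.53 (adjusted p = 0.000161) and Sox9 at 2.98 (adjusted p = 0.0016).

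Falling windows of other classes were led by an ERVL-MaLR window past the end of Chp2, a calcineurin B homologous protein. It had 67.9, 75.4, 65.9 and 73.3 CPM in naive and 39.8, 41.8, 46.0 and 35.6 CPM in injury libraries, with no overlap (log2 fold change -0.79, SE 0.12, edgeR adjusted p = 0.000504). Its gene row changed by -0.80. The Low_complexity window of Ppp1r35, a centriole protein gene, went from 5.98 ± 0.319 to 2.48 ± 0.675 CPM (log2 fold change -1.27, edgeR adjusted p = 0.00195), and changed by -1.12 without naive 2, injury 2 and injury 3 (adjusted p = 0.0266). The Alu window of Castor2, a relative of an arginine sensor, went from 20.5 ± 3.06 to 13.7 ± 1.06 CPM (log2 fold change -0.58, edgeR adjusted p = 0.0149), a call lost without naive 2, injury 2 and injury 3 (adjusted p = 0.0587). The ERVL-MaLR window of Ganc, an alpha-glucosidase gene, went from 6.54 ± 1.12 to 3.48 ± 0.67 CPM (edgeR adjusted p = 0.0108).

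Only 1 of the rising B2 windows lay on a gene that was called higher, and 16 lay on no annotated gene of the strand. Where a gene row existed, it held fewer counts than the window for 8 of 16 rising B2 windows. Of the 65 members called higher, 39 lay on a gene that was tested: the gene was higher for 21, not called for 17 and lower for 1. The 12 B2 windows among these 39 had 1 gene called higher and 11 not called, and 22 further B2 windows lay on no tested gene. Of the 39 members called lower, 34 had a tested gene, which was lower for 17 and not called for 17. Among paired windows with no class, 296 of 355 higher windows lay on a gene called higher. Of all genes tested, 10.1% were called higher and 7.76% lower, 17.8% in all. A window's reads are part of the gene's count where the gene table counts them, so window and gene are not independent.

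**Figure D5:**
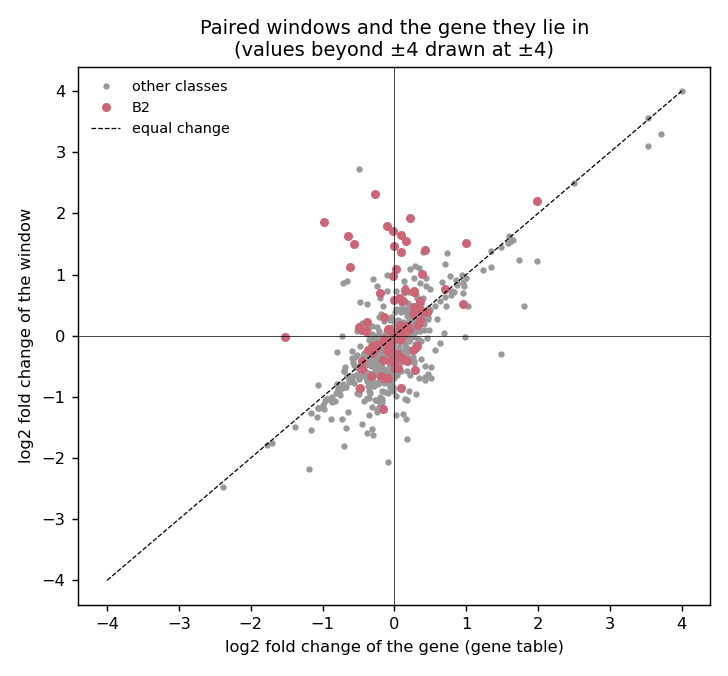
Log2 fold change of the tested paired windows against that of the gene row of the same name, with B2 windows coloured and equal change as a dashed line. Most windows of other classes follow the line, and a group of B2 windows lies above 1 where the gene lies near 0.

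Measured as a share of the sites of 1 gene, 3 member windows gained and none lost. Of 3514 sites tested with diffSpliceDGE in 1335 genes, 0.171% were called higher and 0.0285% lower. Of the 384 member sites, 3 were called higher and 0 lower, and 23 had an unadjusted p under 0.05. The site of Eml4, a microtubule-binding protein gene, is a Simple_repeat;B2 window past the annotated end on chr17:83481317-83481342. It took 9.86%, 22.9%, 10.6% and 21.3% of the gene's site counts in naive and 70.5%, 57.2%, 52.5% and 72.8% in injury libraries (adjusted p = 0.000322). The window itself held 3.55 ± 1.61 and 23.5 ± 9.66 CPM (log2 fold change 2.72, SE 0.39, edgeR adjusted p = 0.00033). The gene row fell from 22.3 ± 1.86 to 15.1 ± 0.423 CPM (log2 fold change -0.49, edgeR adjusted p = 0.0111). In injury libraries the window's mean lay above that of the gene row. The gene table therefore did not count all these reads as Eml4, and whether they belong to its transcript was not tested.

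The B2 site of Klhl24 took 18.8%, 18.9%, 20.3% and 13.1% in naive and 36.4%, 46.8%, 49.97% and 34.3% in injury libraries (diffSpliceDGE adjusted p = 0.00157). Its 3 other sites had lower mean shares, and none was called. The B2 site of Zfp318, a zinc finger protein gene, went from 3.74% to 12%. That call was lost with the replicate block (adjusted p = 0.0776). It was lost as well when naive 1, naive 4, injury 1 or injury 4 was left out, with an adjusted p of at most 0.238. As counts, the Zfp318 B2 window rose from 0.996 ± 0.458 to 3.24 ± 0.991 CPM (edgeR adjusted p = 0.00588). The B4 window at the distal end of the same gene fell from 8.92 ± 1.22 to 4.79 ± 0.102 CPM (log2 fold change -0.90, edgeR adjusted p = 0.00321), and the gene row did not pass the test (52.6 ± 1.95 and 49.1 ± 4.62 CPM).

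Genes of RNA polymerase III transcription, the machinery that makes free B2 RNA, and genes that silence repeats were read from the gene table. Of 25 tested genes of the first list, 2 rose and 0 fell, beside 10.1% and 7.76% of all genes. Polr3d, a polymerase subunit, had 32.1 ± 3.27 CPM in naive and 41.2 ± 1.66 CPM in injury libraries (log2 change 0.44, edgeR adjusted p = 0.0113). The median log2 fold change of the list was 0.031. Of 17 tested silencing genes, 0 rose and 1 fell: Hells, a chromatin remodeller of DNA methylation, went from 19.7 ± 1.88 to 10.7 ± 3.79 CPM (log2 fold change -0.81, edgeR adjusted p = 0.0207). This call was lost without naive 3, naive 4 or injury 2. The median of that list was 0.049.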

How the data were processed

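The authors deposited read counts per gene and read counts per genomic window for 8 QuantSeq 3′ mRNA-seq REV libraries, as raw counts that were not normalized. The submitters' processing notes name bcl2fastq 2.17, STAR, HTSeq and GRCm38/mm10. For STAR and HTSeq no version is named there. Neither the choice of windows nor the counting of multiply mapped reads is stated in those notes or the labels. Counts were divided by the gene table total of each library. Of 774 members with at least 100 counts, 28 shared all 8 counts with another row, and none of these was called.

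All window rows that passed filterByExpr (about 0.473 CPM in 4 libraries) were tested together with edgeR 4.0.16 (quasi-likelihood, group only, library sizes from gene totals, R 4.3.3), adjusted by Benjamini-Hochberg at 0.05. Genes were tested likewise with TMM factors, and site usage with diffSpliceDGE over sites with at least 5% of a gene's site counts. DESeq2 1.42.0 and limma 3.58.1 were alternatives. The same tests were also run on simulated counts, and those results are not reported here.

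Windows were placed on GENCODE vM21, and Castor2 and Faap20 were found in the gene table under older symbols. Whether window starts count from 0 or 1 is not stated. Per class with 20 tested members, the 2 most abundant windows and the strongest call in each direction were named, with the 8 strongest calls in each direction and windows called in usage. Some of these are not described, and the values of 1 list gene are not reported here. Other names are marked. Members and lists were chosen with earlier results of these data known. Same-numbered libraries were taken as pairs from the design text. P-values set the group difference against the spread between these libraries. Those of the main tests use the group only, so they leave the pairing out and treat libraries of the same mouse as independent. Correlations of paired deviations were 0.13, 0.22, 0.05 and 0.17. In pair 3 the libraries did not match each other best.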

Additional observations from a re-analysis of the deposited data

Results flagged for a closer look

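Of 96 groups of 4 libraries checked for a single library far from the others, 4 had one, and chance alone gives about 1 in 20. In the Lipn window the highest naive library lay at 0.362 CPM, next to 0.0573 CPM. In the B4 window on chr13:108287053-108287078, on no annotated gene of its strand, the highest injury library lay at 34.4 CPM, next to 24.6 CPM; without that library, injury 3, the window was called lower (log2 fold change -0.44, edgeR adjusted p = 0.0253). In the Ganc window the lowest naive library lay at 4.88 CPM, next to 6.88 CPM. In the Rnf19b window the highest naive library lay at 120.2 CPM, next to 108 CPM.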

How the results depend on the processing

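Scaling moved the results most. TMM over the window rows takes most rows as unchanged. Of the 33851 tested rows, 18204 were once-listed B2 windows, with a median log2 fold change of 1.24. With TMM over the window rows, 32 members were called higher and 278 lower, and the log2 ratios of class sums became -0.66 (all classes), -1.08 (Low_complexity), -0.51 (Alu, reversed from 0.073), -0.12 (B2, reversed from 0.47), -0.71 (ERVL-MaLR), -0.70 (Simple_repeat), -0.49 (B4, reversed from 0.081) and -0.77 (L1). Among named windows it reversed Cd59a (-0.015), Map1a (-0.51), H2-D1 (-0.54), Stx1a (-0.10), Faap20 (-0.41) and Fbxo2 (-0.45). TMM factors of the gene table gave ratios of 0.15 (Alu), 0.16 (B4) and -0.11 (L1), and without its largest window L1 stood at -0.13. With limma-voom 73 members were called lower, and 35 Low_complexity windows (23 with DESeq2). The causes were not tested.

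Leaving out 1 library at a time gave 53 to 64 members higher and 21 to 47 lower (21 without injury 2), 2 to 3 usage sites higher, and 2 to 3 Pol III or silencing genes higher and 0 to 1 lower. With naive 2, injury 2 and injury 3 left out together, chosen after the data were seen, the log2 ratio of the B2 sums was 0.60, and Fbxo2 changed by -0.069. The B2 sum of naive 2, 1682 CPM, was the highest of the naive libraries. Windows with changes near 0 changed sign: with 1 library left out, H2-D1 ranged from -0.027 to 0.11, Snhg11 from -0.35 to 0.025 and Dctn5 from -0.078 to 0.082, and Dctn5 stood at 0.069 with TMM of the gene table, 0.0046 with limma-voom and 0.044 without the 3 libraries.

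With the replicate block, 54 members were called higher and 49 lower, and no named window other than Aim2 lost its call; the Zfp318 usage call was lost. Rows of the first-listed block alone could not be run, since no member row stands there. Sums of L2 and L1 without the window that moved most, an alternative chosen after the data were seen, overlapped between groups, and those of B2 (1466 ± 101 and 1927 ± 172 CPM) and hAT-Charlie did not.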
